A study of Mus musculus with 2 samples.

Results

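The genes of glycolysis and of the oxygen response run by hypoxia-inducible factors (HIFs) were followed in RNA from macrophages isolated from the dorsal root ganglia of mice, which house the cell bodies of sensory neurons. The set was given as 37 gene symbols, and each matched exactly 1 of the 49315 genes in the count table. Of these, 20 were taken as glycolytic (15 enzymes, 3 sugar and lactate transporters and 2 PFKFB regulators) and 17 as other HIF-linked genes (3 HIF subunits, 2 oxygen sensors with the ubiquitin ligase subunit Vhl, and 11 target genes). 1 group of mice breathed normal air (normoxia, sham exposure at 21% oxygen), and the other was given chronic intermittent hypoxia, which imitates the oxygen dips of sleep apnoea, with 1 library each. Oxygen for the hypoxia group swung between 21% and 8% in cycles of 6 min (10 cycles per h) for 8 h a day on 14 days. Both groups were sampled about 18 h after the last exposure. The sources used here do not give the strain, the age, the number of mice per library or how macrophages were isolated.

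Glycolysis splits glucose into pyruvate in the cytosol, and lactate dehydrogenase turns pyruvate into lactate. Prolyl hydroxylases of the Egln family use oxygen to mark the HIF alpha subunits for Vhl, which sends them to degradation. When oxygen is scarce the alpha subunits persist, pair with Arnt and bind elements with the core ACGTG or GCGTG, which lie near genes for most glycolytic enzymes, for glucose uptake, for angiogenesis and for the Egln enzymes themselves. In macrophages a shift towards glycolysis accompanies pro-inflammatory activation, the state that the series title names.

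With 1 library per group no difference here has a replicate check, no p-value was computed, and every interval covers counting error only. The normoxia library held 2171348 counts over 4640 counted genes and the hypoxia library 145056 counts over 2050 genes, a 15.0-fold gap in depth that cannot be told apart from the exposure. Genes counted in 1 library alone had median counts of 229 in normoxia and 39 in hypoxia (of those with at least 10). If each was copied from 1 starting molecule, which was not tested, normoxia held about 9482 molecules and hypoxia 3719. Values are given as CPM (a gene's counts after scaling each library to the same total), and ratios are the CPM in hypoxia over that in normoxia, with 95% intervals on reads and, where named, on estimated molecules. Where a gene had 0 counts, up to 3 counts were allowed for (1.38 CPM in normoxia, 20.7 CPM in hypoxia). TMM scaling, which trims extreme genes, in place of total counts multiplies every ratio by 0.573, a shift of −0.80 on the log2 scale that also moves the median of all genes. It draws only on the 1158 genes counted in both libraries, as do DESeq2 size factors, another scaling used below. The hypoxia library was assigned by the initial of its column code alone, since the 19 in that code is found in neither sample's labels.

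The macrophage label was checked against marker genes. Of 20 pan-macrophage markers, 17 were counted in normoxia and 6 in hypoxia, taking 3.16% and 2.56% of counts. The defining markers Adgre1 (F4/80), Cd68, Csf1r and C1qa were at 1764, 1565, 1326 and 1092 counts in normoxia, and each was at 0 in hypoxia. Lyz2, which neutrophils also express, had 34028 and 3164 counts, 49.6% and 85.3% of the list, and Itgam had 117 and 40. Also counted in both libraries were Apoe (12776 and 249 counts), Ctsb (5770 and 81), Ctss (4825 and 168) and Cx3cr1 (1170 and 6). The 7 monocyte markers were all counted in normoxia and 4 of them in hypoxia, taking 0.568% and 0.556% of counts. Of 15 neutrophil markers, 11 were counted in normoxia and 12 in hypoxia, and together they took 1.84% and 10.3% of counts. Their summed ratio was 5.63 (4.70 to 6.78 on molecules), or 3.23 with TMM. Of the 11 with at least 50 counts over both libraries 8 were more than 2-fold higher in hypoxia, beside 16.1% of all genes tested. They were led by S100a9 (11656 and 4197 counts), S100a8 (10004 and 3561) and Ngp (6932 and 3060), with Ly6g at 0 and 110. The other 3, Mmp8 (312), Mmp9 (522) and Mpo (506), were counted in normoxia alone. With intervals on estimated molecules 7 of the 11 were higher and 0 lower, beside 0.83% and 0.38% of all genes tested. Of 12 erythroid markers, 11 and 8 were counted, taking 9.80% and 7.96%. Of 12 Schwann and satellite glia markers, 3 and 4 were counted, taking 0.0144% and 0.131%. Their summed ratio was 9.09 (1.21 to 191 on molecules), or 5.21 with TMM (0.692 to 109 on molecules). Among the sensory neuron markers only Isl1 was counted, at 0 and 60 counts. Fibroblast markers had 1049 and 0 counts, lymphocyte markers 961 and 0, and endothelial markers 0 in both libraries. Neutrophils and red cells depend on glycolysis for energy, and the part of these cells in the values below was not tested. In such bulk libraries, fewer cells of a type and less RNA per cell cannot be told apart.

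Of the 37 genes, 21 were counted in at least 1 library. Normoxia held 18 of them and hypoxia 12, with 9 counted in both, 9 in normoxia alone and 3 in hypoxia alone, while 16 had 0 counts in both. These 16 were not detected at this depth, which does not show that they are absent. On estimated molecules, 0 allows up to 316 CPM in normoxia and 807 CPM in hypoxia. Among the glycolytic genes 14 were counted in normoxia, and 8 of these 14 were also counted in hypoxia. Among the HIF-linked genes 4 were counted in normoxia, and 1 of these 4 was also counted in hypoxia. Of all genes, 25% of the 4640 genes counted in normoxia were also counted in hypoxia, and 56.5% of the 2050 genes counted in hypoxia were also counted in normoxia.

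**Figure D1:**
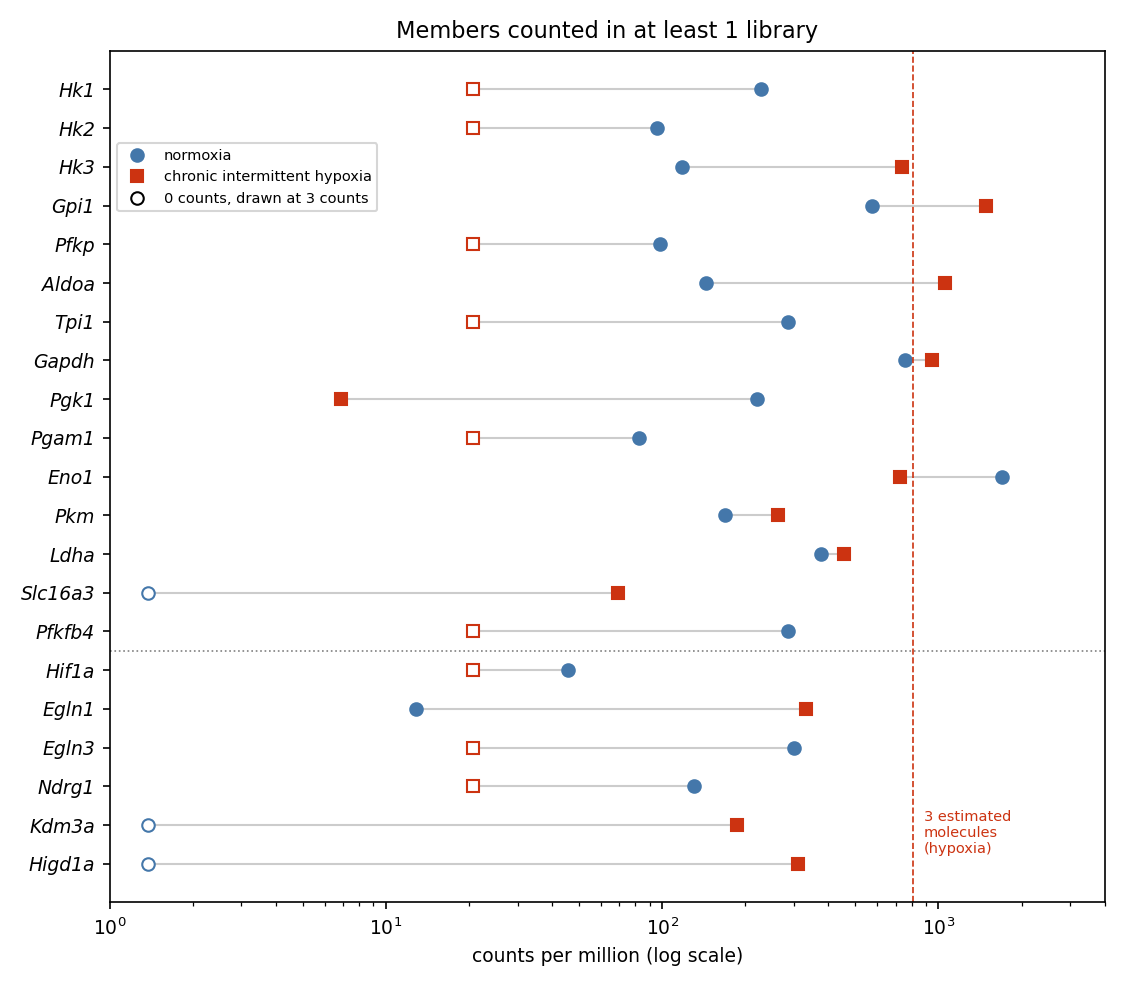
CPM (log scale) of the 21 members counted in at least 1 library, with normoxia as blue circles, chronic intermittent hypoxia as red squares and open symbols for 0 counts drawn at the level of 3 counts. Members above the dotted line are glycolytic and those below are HIF-linked. The dashed line marks 807 CPM, the level of 3 estimated molecules in hypoxia, and all 9 members with 0 in hypoxia lie below it in normoxia.

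A gene counts as past the size rule when it has at least 50 counts over both libraries, its ratio is at least 2-fold from 1 and its interval on reads excludes 1. The limit of 50 is on raw counts, and normoxia is 15.0-fold deeper. Genes seen in normoxia alone therefore enter at a lower CPM than genes seen in hypoxia alone. This tilts the calls towards lower, for members and all genes alike. By the size rule 11 of the 18 members with enough counts were lower in hypoxia, where 71.5% of the 4215 genes tested were lower. Of the same 18, 4 were higher, where 16.1% of all genes tested were higher, and 3 were past neither limit. The 11 lower members were 8 glycolytic and 3 HIF-linked genes, and 9 of them had 0 counts in hypoxia. The 4 higher members were Hk3, Gpi1, Aldoa and Egln1. The median ratio of the 18, with each 0 taken as 3 counts, was 0.338, beside 0.260 over all genes tested. With intervals on estimated molecules, 0 members were lower and 0 higher, beside 0.38% and 0.83% of all genes tested. With DESeq2 size factors 11 members were lower and 3 higher (75.5% and 12.1% of all genes tested), with the housekeeping list 11 and 4 (70.8% and 16.9%) and on the deposited TPM (abundances per transcript length) 11 and 3 (73.5% and 14.1%). At a 4-fold limit 10 were lower and 3 higher (69.4% and 10.8%). Of the members short of 50 counts, 3 had some counts and 16 had none. Higd1a (310 CPM in hypoxia) and Kdm3a (186 CPM) were among the 3, while Hif1a met the limit at 45.6 CPM in normoxia.

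Genes with more counts in normoxia were more often counted in hypoxia, so the members were set beside genes of like counts in normoxia. Among genes with 200 to 499 counts there, 20.0% were also counted in hypoxia, as were 4 of the 7 glycolytic members in that range (Hk3, Aldoa, Pgk1 and Pkm). Among genes with 500 to 999 counts the share was 40.8%, and 1 of 3 glycolytic members was counted (Ldha, but neither Tpi1 nor Pfkfb4). With 1000 counts or more it was 69.1%, and all 3 glycolytic members there (Gpi1, Gapdh and Eno1) were counted. The HIF-linked genes in these ranges, Ndrg1 and Egln3, were not counted in hypoxia. Each range holds few members, and whether their share differs from that of other genes was not tested.

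**Figure D2:**
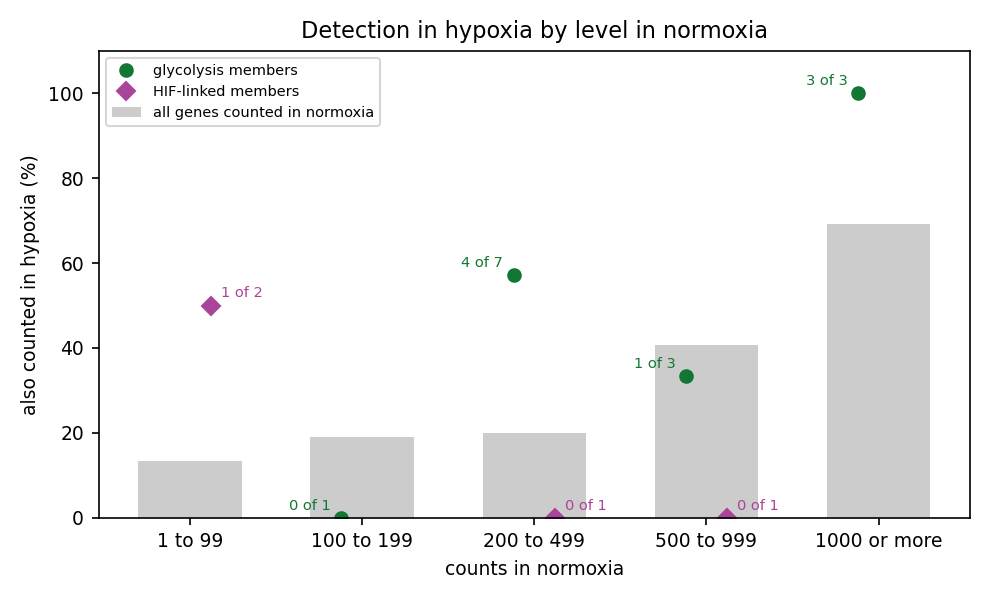
Percent of genes also counted in hypoxia (vertical axis) by their counts in normoxia (horizontal axis). Grey bars are all genes counted in normoxia, green circles the glycolytic members and purple diamonds the HIF-linked members, with the numbers of members beside them. The bars climb from 13.4% to 69.1%, and the glycolytic members lie above the bar at 200 to 499 counts and below it at 500 to 999.

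Summed over their genes, the glycolytic members took 0.514% of counts in normoxia (exact 95% interval 0.504 to 0.523) and 0.575% in hypoxia (0.537 to 0.615), which gives a hypoxia-to-normoxia ratio of 1.12 that turned to 0.641 with TMM and to 0.859 on TPM. On estimated molecules its interval was 0.640 to 1.90, from 48.7 and 21.4 molecules. The HIF-linked members took 0.0489% (0.0460 to 0.0519) and 0.0827% (0.0686 to 0.0989), which gives a hypoxia-to-normoxia ratio of 1.69 that was 0.970 with TMM. Its interval on estimated molecules was 0.264 to 9.01, from 4.63 and 3.08 molecules. Glycolytic counts were 10.5 times the HIF-linked counts in normoxia and 6.95 times in hypoxia. This within-library balance does not depend on how the libraries are scaled. In hypoxia it was 0.661 of its normoxia value, between 0.540 and 0.816 on reads and between 0.126 and 5.04 on estimated molecules. From summed TPM values, which also weigh gene length, it was 0.731. On counts it was 1.07 without Egln1, 1.06 without Higd1a and 0.255 without Egln3, so its direction rests on single HIF-linked genes.

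Glucose enters glycolysis through the hexokinases, and the 3 hexokinase genes differed from each other. Hk1, the form of most tissues, had 494 counts in normoxia and 0 in hypoxia. Hk2, an inducible form and HIF target, had 208 and 0. Hk3, a form found mainly in myeloid cells, had 257 and 107 counts (chromosome 13, 55005985 to 55021385 on GRCm38), or 118 and 738 CPM. Thus normoxia held all 3 and hypoxia held Hk3 alone. The ratio of Hk3 was 6.23 (4.93 to 7.84 on reads, 0.494 to 241 on molecules), above 2 with TMM as well. As a share of hexokinase counts Hk3 made up 26.8% in normoxia (24.0 to 29.7 on reads, 0.966 to 80.7 on molecules) and 100% in hypoxia (96.6 to 100 on reads, 26.1 to 100 on molecules). The intervals on molecules overlap, and hypoxia held 2.74 estimated Hk3 molecules in all. At its normoxia share, Hk1 would come to 0.846 estimated molecules in hypoxia and Hk2 to 0.356.

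The next steps were split between counted and missing genes. Gpi1, which turns glucose 6-phosphate into fructose 6-phosphate, had 1247 counts in normoxia and 216 in hypoxia (chromosome 7, 34201330 to 34230336), or 574 and 1489 CPM. Its ratio was 2.59 (2.23 to 3.00 on reads, 0.648 to 10.4 on molecules), and 1.49 with TMM, which is short of 2-fold. Of the phosphofructokinase genes, whose product commits sugar to glycolysis, Pfkp had 214 and 0 counts, and Pfkl and Pfkm had 0 in both libraries. The hypoxia library therefore held no count of any phosphofructokinase gene. Aldoa, the aldolase that splits the 6-carbon sugar, had 313 and 153 counts (chromosome 7, 126795234 to 126800751), or 144 and 1055 CPM. Its ratio of 7.32 (5.99 to 8.91 on reads, 0.857 to 161 on molecules) was the highest among the glycolytic genes counted in both. Tpi1, which interconverts the resulting 3-carbon sugars, had 619 counts in normoxia and 0 in hypoxia. Its ratio had an upper 95% limit of 0.0895 on reads and 7.43 on molecules. At its normoxia share it would come to 1.06 estimated molecules.

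The enzymes of the energy-yielding steps were mostly counted in both libraries. Gapdh, glyceraldehyde-3-phosphate dehydrogenase, had 1639 and 138 counts (chromosome 6, 125161715 to 125166467), or 755 and 951 CPM, giving 1.26 as the ratio (1.05 to 1.5), which turned to 0.722 with TMM. Gapdh has many near-identical copies, and a search of its transcript against GENCODE M21 transcripts found 78 other genes with at least 95% identity over at least 200 bases, 75 of them pseudogenes. These copies held 670 counts in normoxia and 12 in hypoxia. Together with them Gapdh had 2309 and 150 counts, giving 0.972 as the ratio (0.819 to 1.15), so its direction depends on how reads are shared out. Of the other members, only Eno1 had copies with counts, 6 in normoxia and 0 in hypoxia. Pgk1, phosphoglycerate kinase and a classical HIF target, had 477 counts and 1 count, giving 0.031 as the ratio (0.001 to 0.176 on reads, with an upper limit of 12.7 on molecules). Pgam1, phosphoglycerate mutase, had 179 and 0.

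Eno1, the enolase of most tissues, was the member with most counts in normoxia. It had 3700 counts in normoxia and 105 in hypoxia (chromosome 4, 150236721 to 150248879), or 1704 and 724 CPM. Its ratio was 0.425 (0.347 to 0.516 on reads, 0.0705 to 1.56 on molecules), lower with TMM as well. Without Eno1 the ratio of the summed glycolytic genes was 1.46 in place of 1.12. Pkm, which makes pyruvate, had 367 and 38 counts, giving 1.55 as the ratio (1.08 to 2.17), or 0.888 with TMM. Ldha, which makes lactate, had 816 and 66 counts (chromosome 7, 46841475 to 46855627), giving 1.21 as the ratio (0.927 to 1.56), or 0.694 with TMM. Pkm and Ldha were past neither limit, and the direction of both depended on the scaling.

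**Figure D3:**
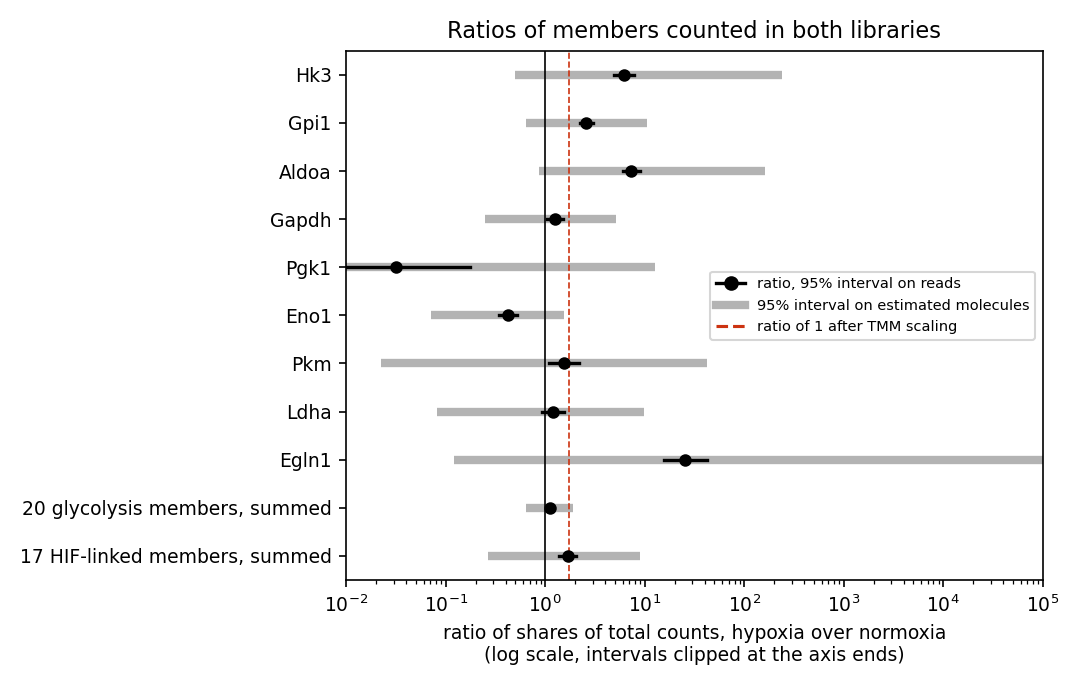
Ratio of hypoxia over normoxia on total counts (log scale) for the 9 members counted in both libraries and for both groups of genes summed. Dots are ratios, black lines 95% intervals on reads and grey bars 95% intervals on estimated molecules, cut at the ends of the axis. Every grey bar crosses 1, and after TMM scaling the ratio of 1 lies at the dashed line.

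Levels of different genes can be compared only per length, for which the authors' TPM values were used. In normoxia the highest members were Eno1 (580 TPM), Gapdh (334), Ldha (208), Egln3 (206), Tpi1 (189) and Pgk1 (179). In hypoxia they were Aldoa (394 TPM), Gpi1 (324), Gapdh (323), Hk3 (281), Ldha (193) and Eno1 (189). Gapdh and Ldha stood in the first 5 in both libraries, while Aldoa ranked 10 among the members in normoxia and Hk3 ranked 12. With no replicates, and 0.536 and 0.440 molecules expected in hypoxia for Aldoa and Hk3 at their normoxia shares, the order of neighbours has no error estimate beyond counting.

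Splitting the enzymes at glyceraldehyde 3-phosphate, a division made after the counts were seen and so given with no interval, the genes from hexokinase to Tpi1 held 3352 counts in normoxia and 476 in hypoxia. Those from Gapdh to Ldha held 7178 and 348. As shares of the library the former were 0.154% and 0.328%, and the latter 0.331% and 0.240%. These give ratios of 2.13 and 0.726, or 1.22 and 0.416 with TMM, from 12.2 and 8.92 estimated molecules in hypoxia. In hypoxia all counts from hexokinase to Tpi1 came from Hk3, Gpi1 and Aldoa.

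Glucose and lactate carriers had few or no counts. Slc2a1 and Slc2a3, the glucose transporters GLUT1 and GLUT3, had 0 counts in both libraries. Slc16a3, the lactate exporter MCT4, had 0 counts in normoxia and 10 in hypoxia, which is 68.9 CPM and 0.256 estimated molecules. Of the bifunctional enzymes that set the level of fructose 2,6-bisphosphate, an activator of phosphofructokinase, Pfkfb3 had 0 counts in both and Pfkfb4 had 621 in normoxia and 0 in hypoxia. The upper limit of its ratio was 0.0892 on reads and 7.39 on molecules. At its normoxia share Pfkfb4 would come to 1.06 estimated molecules.

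Of the HIF subunit genes, Hif1a had 99 counts in normoxia and 0 in hypoxia. Its ratio had an upper 95% limit of 0.568 on reads. At its normoxia share it would come to 0.170 estimated molecules, so molecules set no useful limit. Epas1, which encodes HIF-2 alpha, and Arnt had 0 counts in both libraries, as did Vhl. HIF alpha subunits are controlled mainly at the protein level, which these data do not measure.

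The oxygen sensor genes had opposite calls on reads, and neither passed on estimated molecules. Egln1 (PHD2), the main prolyl hydroxylase under normal oxygen, had 28 counts in normoxia and 48 in hypoxia (chromosome 8, 124908587 to 124949324), or 12.9 and 331 CPM. Its ratio of 25.7 (15.8 to 42.5 on reads) was the highest of all members counted in both, with a lower limit of 0.120 on molecules. Egln1 came to 0.122 estimated molecules in normoxia and 1.23 in hypoxia, where 1 molecule alone is 269 CPM. The size of its ratio thus rests on about 1 molecule. Egln3 (PHD3), itself a HIF target, had 652 and 0 counts (chromosome 12, 54178981 to 54203860), or 300.3 CPM in normoxia, with an upper limit of 0.0849 for its ratio on reads and 6.76 on molecules. Thus Egln3 held 61.5% of the HIF-linked counts in normoxia and none in hypoxia. At its normoxia share it would come to 1.12 estimated molecules, so its absence rests on about 1 molecule.

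Because HIF recognises short cores near its targets, stretches before a RefSeq start on GRCm38.p6 are shown, 5′ to 3′ on the gene's strand. They are from the sensors Egln3 and Egln1, from Hk3 as a gene with a high ratio and from Ldha as a classical target. Each stops where it would run into a GENCODE M21 exon of the gene. The Ldha stretch lies inside the GENCODE span of the gene (46841475 to 46855627), and another RefSeq window of Ldha starts at 46846832. Capitals mark the cores ACGTG and GCGTG on either strand, so that CACGT in capitals is ACGTG on the other strand.
Egln3, chr12:54203875-54204124, minus strand: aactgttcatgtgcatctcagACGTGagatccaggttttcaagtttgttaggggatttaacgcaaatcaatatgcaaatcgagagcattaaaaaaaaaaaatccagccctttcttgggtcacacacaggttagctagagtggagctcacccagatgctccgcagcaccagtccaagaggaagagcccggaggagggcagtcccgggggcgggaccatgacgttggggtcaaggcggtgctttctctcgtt
Egln1, chr8:124949325-124949504, minus strand: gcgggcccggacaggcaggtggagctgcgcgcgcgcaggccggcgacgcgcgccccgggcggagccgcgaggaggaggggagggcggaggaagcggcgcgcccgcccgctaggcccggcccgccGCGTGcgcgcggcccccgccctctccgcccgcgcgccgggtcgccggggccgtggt
Hk3, chr13:55021386-55021635, minus strand: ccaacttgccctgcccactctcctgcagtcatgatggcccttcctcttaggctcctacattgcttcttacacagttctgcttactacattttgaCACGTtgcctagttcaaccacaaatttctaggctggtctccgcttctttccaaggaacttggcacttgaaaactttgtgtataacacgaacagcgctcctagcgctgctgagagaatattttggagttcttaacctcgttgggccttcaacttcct
Ldha, chr7:46845554-46845803, plus strand: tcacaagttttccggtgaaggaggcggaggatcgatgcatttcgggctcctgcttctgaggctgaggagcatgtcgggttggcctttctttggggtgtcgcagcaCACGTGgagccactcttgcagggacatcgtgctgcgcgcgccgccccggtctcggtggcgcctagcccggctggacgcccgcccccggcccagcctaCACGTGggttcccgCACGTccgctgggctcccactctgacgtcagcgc
The Ldha stretch holds 5 cores, 4 of them in 2 copies of CACGTG, which is an E-box and reads as ACGTG on both strands, whereas the stretches of Egln3, Egln1 and Hk3 hold 1 each. The cores of Egln3 and Hk3 begin 229 and 156 bases before the start, and that of Egln1 126 bases before it. Egln1 has another core, ACGTG, 68 bases before the start, outside the stretch shown.

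In RefSeq windows of 300 bases around the start (250 before and 50 after), found for 34 of the 37 members, ACGTG or GCGTG on either strand occurred in 38 of 49 windows (77.6%). Over all 32851 windows the share was 43.8%, and over windows of genes counted in either library it was 61.1%. Windows of 1 gene can overlap, and the median GC content was 62.3% in the members' windows, 52.7% in all and 60.7% in those of counted genes. ACGTG alone was in 53.1% of the members' windows, 19.6% of all windows and 25.6% of those of counted genes. GCGTG was in 53.1%, 32.4% and 49.3%, so its share in the members was near that in counted genes. By gene, 31 of the 34 members with a window (91.2%) held either core, beside 46.7% of all genes and 66.9% of counted genes. Of the 4 members higher by the size rule, 3 had a window with either core, as did 9 of the 10 lower members with a window. Many members were listed because they are HIF targets, so this is a description of the set. Gpi1 and Tpi1, a higher and a lower member, had neither core in these windows.

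Among the 11 HIF target genes, 3 were counted at all, each in 1 library. Ndrg1, a stress-response gene, had 282 counts in normoxia and 0 in hypoxia. Its ratio had an upper 95% limit of 0.197 on reads and 48.4 on molecules. Higd1a, which encodes a mitochondrial inner membrane protein, had 0 counts in normoxia and 45 in hypoxia (310 CPM, chromosome 9, 121848563 to 121858362). Kdm3a, a histone demethylase gene, had 0 and 27 (186 CPM, chromosome 6, 71588972 to 71632990). The lower limits of their ratios were 175 and 102 on reads, and 0.109 and 0.0124 on molecules. Both miss the limit of 50 counts, and Higd1a comes to 1.15 and Kdm3a to 0.692 estimated molecules. Genes counted in hypoxia alone had a median of 34 counts, with quartiles of 19 and 50, and both genes lie between these quartiles. Pdk1, Vegfa, Bnip3, P4ha1, Ddit4, Mif, Adm and Ankrd37 had 0 counts in both libraries. These include the angiogenic factor Vegfa, the mitophagy receptor Bnip3, the pyruvate dehydrogenase kinase Pdk1 and the cytokine Mif.

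The ratios of members counted in both libraries were also set beside other genes of like level. Among 332 genes with 200 to 499 counts in normoxia and any in hypoxia, the median ratio was 1.95, with quartiles of 1.28 and 3.09, and 47.9% were higher by the size rule. Hk3 (6.23) and Aldoa (7.32) lie above the upper quartile, Pkm (1.55) lies between the quartiles, and Pgk1 (0.031) lies below the lower quartile. Ldha (1.21) lies between the quartiles of 0.691 and 1.73 of the 248 genes with 500 to 999 counts. Among 255 genes with 1000 counts or more the median was 0.733, with quartiles of 0.396 and 1.34. Gpi1 (2.59) lies above them, and Eno1 (0.425) and Gapdh (1.26) between them. For Egln1 the 138 genes with 1 to 99 counts had a median of 16.6, with quartiles of 7.10 and 67.7, which enclose its 25.7.

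**Figure D4:**
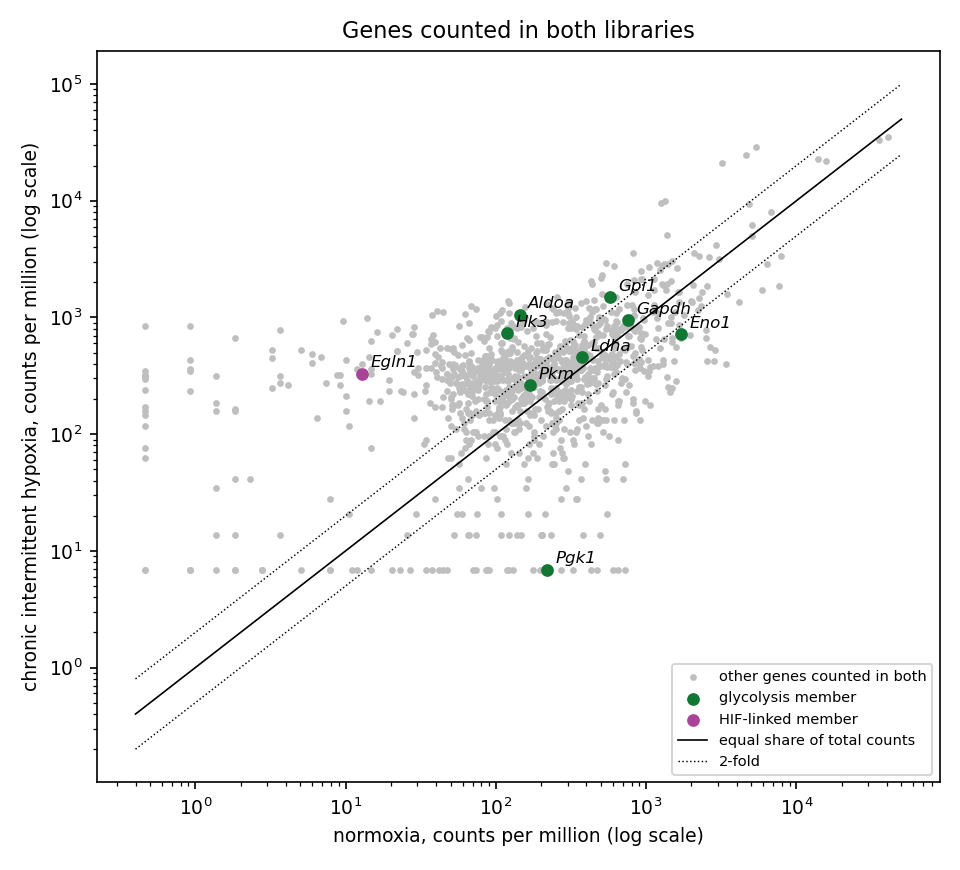
CPM in normoxia (horizontal, log scale) and hypoxia (vertical, log scale) of the 1158 genes counted in both libraries, with glycolytic members in green and the HIF-linked member in purple. The solid line marks equal shares and the dotted lines 2-fold. Genes with low normoxia values lie mostly above the solid line, as does Egln1, while Gapdh, Ldha and Pkm lie within 2-fold of it and Pgk1 lies far below.

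Neighbouring pathways were read from lists of their genes. Genes of the pentose phosphate pathway, which makes NADPH from glucose 6-phosphate, took 0.147% of counts in normoxia and 0.259% in hypoxia, giving 1.76 as the ratio (0.690 to 4.31 on molecules), or 1.01 with TMM. Of its 11 genes 6 were counted in normoxia and 4 of these also in hypoxia, beside 25% over all genes. G6pdx, the entry enzyme, had 426 and 64 counts, Pgd had 837 and 100, Tkt 1373 and 157, and Taldo1 356 and 9. By the size rule 1 of the 5 with enough counts was higher (G6pdx, with a ratio of 2.25 that was under 2-fold with TMM), and 2 were lower (Pgls and Taldo1), beside 16.1% and 71.5% of all genes tested.

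Genes of the pyruvate dehydrogenase complex, which feeds pyruvate into the mitochondrial cycle, and of its regulators were not counted in hypoxia. All 4 counted genes of the pyruvate dehydrogenase list, Dld (445 counts in normoxia), Pdp2 (304), Pdha1 (284) and Pdk4 (135), had 0 counts there. Of all genes with 200 to 499 counts in normoxia 20.0% were counted in hypoxia, so most genes of that level were at 0 as well. Of 20 tricarboxylic acid cycle genes 13 were counted in normoxia and 3 of these in hypoxia, and 9 were lower and 3 higher by the size rule (9 and 2 with TMM). These shares are near those of all genes, of which 25% were also counted in hypoxia, 71.5% were lower and 16.1% higher. Sdha, a succinate dehydrogenase subunit, had 734 and 0 counts, and Mdh2, the mitochondrial malate dehydrogenase, had 400 and 63. Ogdh had 32 and 48 and Idh1 236 and 30. Glycogen and gluconeogenesis genes took 0.109% and 0.117% of counts, with Gyg, which primes glycogen, at 1108 and 66 counts and Pck2 at 618 and 9.

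Of 49 other genes of the HIF pathway, 13 were counted in normoxia and 7 of these also in hypoxia, beside 25% over all genes. They took 0.186% and 0.333% of counts, giving 1.79 as the ratio (0.790 to 3.91 on molecules), or 1.02 with TMM. By the size rule 5 of 13 were higher and 7 lower, beside 16.1% and 71.5% of all genes tested. With TMM 3 were higher and 7 lower, beside 11.9% and 75.7% of all genes tested. Elob, an elongin subunit of the Vhl complex, had 216 and 150 counts, giving 10.4 as the ratio (8.38 to 12.9 on reads, 0.968 to 621 on molecules). Tfrc, the transferrin receptor, had 517 and 132, which gives a hypoxia-to-normoxia ratio of 3.82, and Plin2, which coats lipid droplets, had 125 and 34, which gives a hypoxia-to-normoxia ratio of 4.07. Bnip3l, a mitophagy receptor that red cell precursors use, had 1286 and 113, which gives a hypoxia-to-normoxia ratio of 1.32, or 0.754 with TMM. Rbx1 had 151 and 21, Wsb1 72 and 12, and Narf 189 and 1. Hmox1, haem oxygenase, had 546 and 0, the chemokine receptor gene Cxcr4 had 287 and 0, and the HIF hydroxylase genes Hif1an (181 counts) and Egln2 (79) were counted in normoxia alone.

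**Figure D5:**
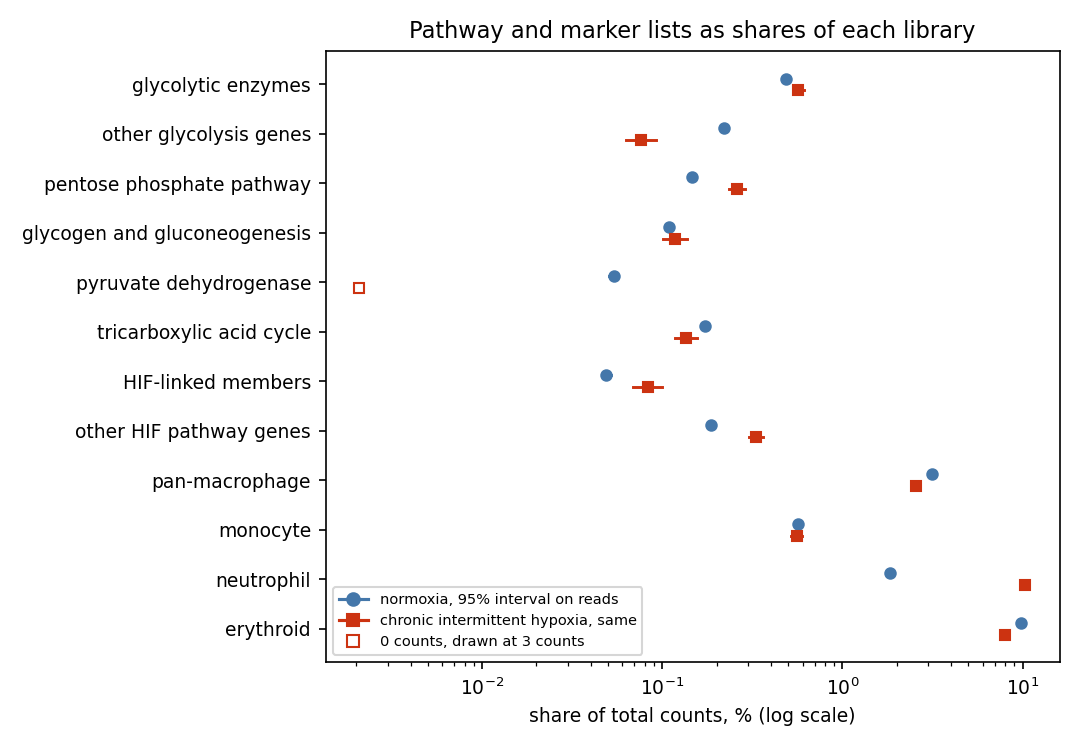
Share of total counts in percent (log scale) for pathway and marker lists, normoxia as blue circles and chronic intermittent hypoxia as red squares, with 95% intervals on reads. The open square stands for 0 counts and is drawn at the level of 3 counts. Glycolytic enzymes lie near each other in both libraries, pyruvate dehydrogenase genes were counted in normoxia alone, and neutrophil markers were at 1.84% and 10.3%.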

How the data were processed

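RNA was sequenced from 2 libraries, 1 per group. The submitters' processing notes name STAR 2.5.2b, featureCounts (Subread 1.5.2) and bcl2fastq 2.20. The sources used here do not give the build, annotation, strand setting or handling of duplicates and multi-mapped reads. The authors deposited raw counts per gene, with no normalization, and TPM values, which were 0 at the same genes and served for levels between genes. Columns were matched to samples by the initials of their codes. The 174 genes with no symbol held 0.0230% of normoxia counts and 0% of hypoxia counts.

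Counts were scaled to library totals. TMM (edgeR 4.0.16), DESeq2 1.42.0 size factors, a housekeeping list and the factor implied by TPM were alternatives, in R 4.3.3. Ratios carry exact Clopper-Pearson 95% intervals of the conditional binomial (scipy 1.17.1), and interval bounds on molecules use counts divided by 229 and 39. No test between conditions was made. No paired or replicate check was possible. The size rule was tried on simulated data with independent reads. These held no copying of molecules, so they do not show how the rule behaves in these libraries. Positions are from GENCODE M21 (GRCm38), where 48970 of 49315 identifiers were found, and the authors' build may differ. A symbol on several rows was read from the row with most counts.

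Members and lists were chosen with earlier results of these data known. Every counted member is named, with genes of each pathway list counted in both libraries or among the 4 with most counts, though not every such gene is printed.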

Additional observations from a re-analysis of the deposited data

How the results depend on the processing

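The number of members lower by the size rule was 9 to 11 under every scaling, count limit and fold tried, and 0 with intervals on estimated molecules. The number higher was 3 or 4, except for 7 with no count limit and 0 with intervals on estimated molecules. With at least 10 counts required, 8 members were counted in both libraries in place of 9. The summed glycolytic ratio of 1.12 turned to 0.641 with TMM, 0.666 with DESeq2 size factors and 0.859 on TPM, and was 1.21 on totals without erythroid and neutrophil genes and 1.46 without Eno1. The HIF-linked ratio of 1.69 turned to 0.970 with TMM, and was 1.01 with DESeq2 size factors, 1.30 on TPM, 4.39 without Egln3, 1.04 without Egln1 and 1.06 without Higd1a. The balance of glycolytic to HIF-linked counts, 0.661 with all members, was 0.865 without Eno1 and 0.255 without Egln3. It turned to 1.07 without Egln1 and 1.06 without Higd1a, and was 0.731 from summed TPM values. Over genes counted in both libraries it was 0.0545, with Egln1 (28 and 48 counts) as the only HIF-linked gene. Among single members Gpi1 lost its 2-fold call with TMM, DESeq2 size factors and TPM. Leaving out Egln1, Higd1a, or both neutrophil and erythroid genes, and scaling by TPM, were chosen after seeing the data. Beyond these constructions the cause was not tested. Depth limits every statement on a gene at 0 in hypoxia, since the highest such member, Egln3, would come to 1.12 molecules there. No paired analysis was possible because each group has 1 library.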

Other observations

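Bpgm, which makes 2,3-bisphosphoglycerate from a glycolytic intermediate and is abundant in red cells, had 3723 counts in normoxia and 97 in hypoxia, giving 0.390 as the ratio (0.315 to 0.477 on reads, 0.059 to 1.48 on molecules) that was lower with TMM as well. It held 77.9% and 87.4% of the counts of the other glycolysis genes. In normoxia it stood at 874 TPM, beside 580 TPM for Eno1. The erythroid marker Alas2 had 5450 and 97 counts. The part of red cells in the Bpgm and Eno1 values was not tested.

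Adpgk, an ADP-dependent glucokinase, had 230 and 14 counts, giving 0.911 as the ratio (0.490 to 1.56 on reads). The monocarboxylate carrier Slc16a1 (348 counts) and the hexose transporter Slc2a6 (450), the sugar and lactate carriers counted in normoxia, had 0 counts in hypoxia.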
